A study of Mus musculus with 2 samples.

Results

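The histone genes described here are the 82 protein-coding genes, of 22028 in GENCODE M21, whose symbols begin with Hist1h to Hist4h, H2af, H3f or H1f. The 67 genes named Hist1h to Hist4h are called replication-dependent and the 15 named H2af, H3f or H1f are called variants, by symbol alone. Their RNA was measured in the adrenal glands of 2 adult male mice of the F1 hybrid strain B6CASTF1/J, aged 8 to 10 months, with no treatment or second group named. Replicate 2 is the submitters' animal 4 and replicate 1 their animal 2. Each library was made from 300 ng of total RNA with ERCC spike-ins and a directional kit. The files give each gene's level in TPM, transcript abundance scaled to a common total, which divides a count by transcript length, once in the format of the program RSEM and once in that of kallisto. The comparisons were of replication-dependent with variant genes, of replicate 2 with replicate 1, and of the RSEM-format with the kallisto-format values.

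Core histones H2A, H2B, H3 and H4 form the nucleosome, around which DNA is wrapped, and the linker histone H1 binds where DNA enters and leaves it. Replication-dependent genes lie in clusters of near-identical, mostly intronless copies and are known for expression in S phase. Their mRNAs typically end shortly after a stem-loop bound by the protein Slbp and carry no poly(A) tail. Variant genes are expressed outside S phase, usually with introns and poly(A) tails, and their proteins replace core histones in resting cells.

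Expected counts on annotated genes totalled 33987434 in replicate 2 and 29994901 in replicate 1. In a library a count of 0 allows up to 3 counts, which is 0.0883 CPM (counts over the library's total) in replicate 2 and 0.10 CPM in replicate 1. The defining markers of the adrenal cortex (5 of 5, among them Star, Hsd3b1 and Cyp11a1) and of its chromaffin cells (4 of 4, among them Chga, Chgb and Th) were detected. Summed adipocyte markers (Car3, Fabp4, Plin1, Adipoq and Cfd) stood at 1711 TPM in replicate 2 and 196 TPM in replicate 1. Those of brown adipocytes stood at 232 and 16.7 TPM in the same order of libraries, with Ucp1 at 0.14 TPM in replicate 1, and the markers of sperm-forming cells were at or near 0 (0.06 TPM in replicate 2 and 0 in replicate 1).

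In the mm10 genome, 54 of the 67 replication-dependent genes lie in the Hist1 cluster on chromosome 13, between positions 21715763 and 23934851. A further 10 lie in Hist2 on chromosome 3, 2 in Hist3 on chromosome 11 and 1, Hist4h4, on chromosome 6. Of these 67 genes, 62 had a single annotated transcript and 62 were annotated with single-exon transcripts only. Among the 15 variants 8 had a single transcript and 7 were single-exon only.

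The stem-loop at the end of the mRNA was searched for in every annotated transcript of these genes, on the sense strand. The letters GGNNNTNNNNANNNCC were required, with the 6 stem bases on each side fully complementary and 4 bases in the loop. The windows below show it in the 3 most abundant replication-dependent genes, in the 2 with the most bases annotated after it and in the 1 variant that has it, with the 16 bases of the stem-loop in capitals and 5 bases on each side, written as DNA 5′ to 3′ from the annotation's transcripts.
Hist1h4h, chr13:23531453-23531478, plus strand: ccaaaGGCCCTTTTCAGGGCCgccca
Hist2h2aa2, chr3:96239779-96239804, minus strand: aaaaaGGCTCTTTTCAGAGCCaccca
Hist1h1c, chr13:23739507-23739532, plus strand: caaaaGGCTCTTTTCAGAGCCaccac
Hist1h1d, chr13:23555782-23555807, plus strand: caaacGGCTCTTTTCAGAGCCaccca
Hist4h4, chr6:136803993-136804018, minus strand: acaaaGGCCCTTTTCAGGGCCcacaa
H2afx, chr9:44335235-44335260, plus strand: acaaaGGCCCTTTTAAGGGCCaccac
A match was found in 46 of the 67 replication-dependent genes, in 1 of the 15 variants (H2afx, whose protein marks DNA breaks) and in 2.23% of 21869 other protein-coding genes, whose transcripts are longer and so offer more places for a match. The form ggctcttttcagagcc was the most frequent, in 26 genes. It was followed by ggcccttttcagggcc in 7 and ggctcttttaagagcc in 6. Of the 21 replication-dependent genes without a match, 15 had fewer than 20 bases annotated after the coding sequence, so that their annotation stops before the place of a stem-loop.

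The annotated ends differed widely between copies. Between 3 and 4884 bases followed the stem-loop, with a median of 91. At most 60 bases followed it in 22 genes and more than 300 in 18. Hist1h4h had 46 bases after it, whereas the linker histone genes Hist1h1c and Hist1h1e had 840 and 1153, Hist4h4 had 2445 and Hist1h1d had 4884 in a transcript of 7425 bases. TPM divides by this length: Hist1h1d received 183 counts in replicate 2 and 144 in replicate 1 but stood at 0.83 and 0.70 TPM in those libraries. At the other end Hist1h4k, annotated with 312 bases, received 274 and 184 counts in replicates 2 and 1 and stood at 42.89 and 31.03 TPM. The length of the RNA molecules that were sequenced cannot be read from these tables.

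**Figure D1:**
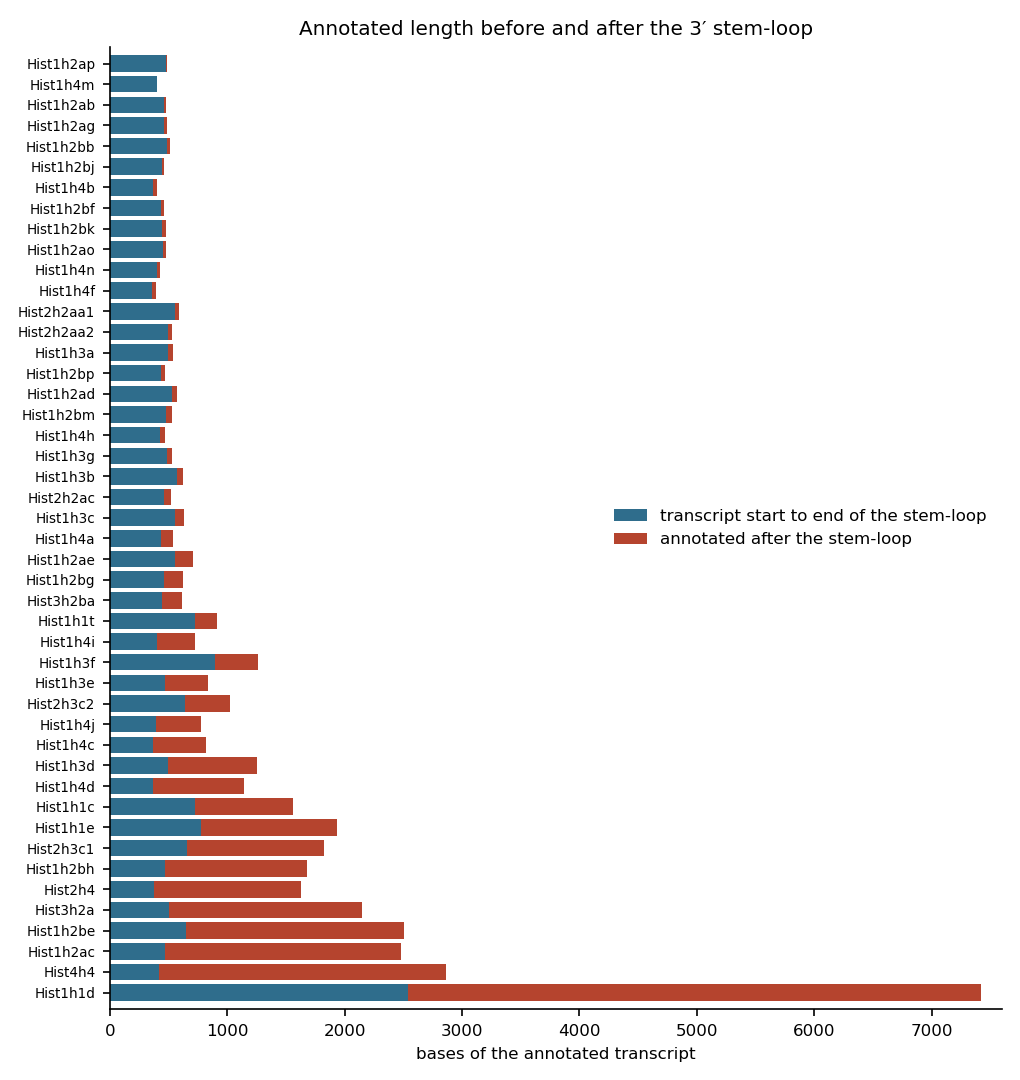
Bases of the longest annotated transcript of each of the 46 replication-dependent genes with a stem-loop match, from the start to the end of the stem-loop (blue) and after it (red), on a linear axis. The red part runs from 3 bases in Hist1h2ap and Hist1h4m to 4884 in Hist1h1d.

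The copies also share coding sequence, which limits how reads can be assigned to a single gene. The first 60 coding bases of 3 H4 genes and 3 H2A genes show this, with differences from the first gene of each trio in capitals.
Hist1h4h, chr13:23531115-23531174, plus strand: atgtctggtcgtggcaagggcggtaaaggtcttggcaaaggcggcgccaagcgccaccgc
Hist1h4m, chr13:21811784-21811843, plus strand: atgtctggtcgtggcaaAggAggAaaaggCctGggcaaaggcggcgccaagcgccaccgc
Hist1h4n, chr13:21832099-21832158, minus strand: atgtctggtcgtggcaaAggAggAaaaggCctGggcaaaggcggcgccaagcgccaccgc
Hist2h2ac, chr3:96220785-96220844, minus strand: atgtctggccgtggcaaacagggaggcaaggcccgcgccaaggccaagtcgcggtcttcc
Hist2h2aa1, chr3:96245581-96245640, plus strand: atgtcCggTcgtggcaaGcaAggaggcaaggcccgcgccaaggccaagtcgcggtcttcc
Hist2h2aa2, chr3:96240191-96240250, minus strand: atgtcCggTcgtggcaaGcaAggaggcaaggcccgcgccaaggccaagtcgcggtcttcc
Hist1h4m and Hist1h4n had 0 differences over their 309 coding bases, and each differed from Hist1h4h at 10 of them. Hist2h2aa1 and Hist2h2aa2 had 0 differences over 390 coding bases, and each differed from Hist2h2ac at 21 of the 387 coding bases of that gene.

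RNA of both classes was present in both glands. Of the 82 genes, 65 reached at least 1 TPM in both libraries, 55 of 67 replication-dependent genes and 10 of 15 variants. Another 7 had 0 counts in both in RSEM format: 3 replication-dependent genes (Hist2h3c1, Hist1h2aa and Hist1h2ba) and 4 variants (H1fnt and the 3 H2afb genes, which are known from testis). Hist2h3c1, which has 0% unique stretches, is listed at 0 but had posterior means of 10.0 ± 7.33 counts in replicate 2 and 12.95 ± 8.79 in replicate 1 (± posterior SD). In kallisto format Hist1h2aa stood at 0.337 TPM in replicate 2 and 0.891 in replicate 1. The testis-type genes Hist1h1t, Hist1h2aa and Hist1h2ba together summed to 0.08 TPM in replicate 2 and 0 in replicate 1.

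All members together took 0.444% of the TPM of protein-coding genes in replicate 2 and 0.401% in replicate 1 (0.423 ± 0.0305%, SD, n = 2 animals, as for every ± between animals below). Summed over genes, the replication-dependent class exceeded the variants, with 1221 TPM in replicate 2 and 1014 in replicate 1 against 622 and 563 TPM of the variants. The ratio of the summed TPM was 1.96 in replicate 2 and 1.80 in replicate 1 (1.88 ± 0.116), above 1 in both animals. Gene for gene the order was the other way: the ratio of the class medians was 0.778 in replicate 2 and 0.705 in replicate 1 (0.742 ± 0.0520). With 1 group of 2 animals no p-value was computed, since the smallest two-sided p of an exact paired permutation is 0.5. Summed counts gave the replication-dependent class 0.0833 ± 0.00921% and the variants 0.0778 ± 0.00705% of coding counts in RSEM format. In kallisto format the order of the summed counts was the other way, with 20292 replication-dependent against 22801 variant counts in replicate 2 and 15044 against 17666 in replicate 1. The replication-dependent class also had shorter annotated transcripts, with a median of 529 bases among 62 single-transcript genes, against 1263 among 8 variants. The classes typically differ in poly(A) tails as well, and how RNA was selected for these libraries is not described here. The part of length or of RNA selection in the excess of summed TPM was not tested.

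**Figure D2:**
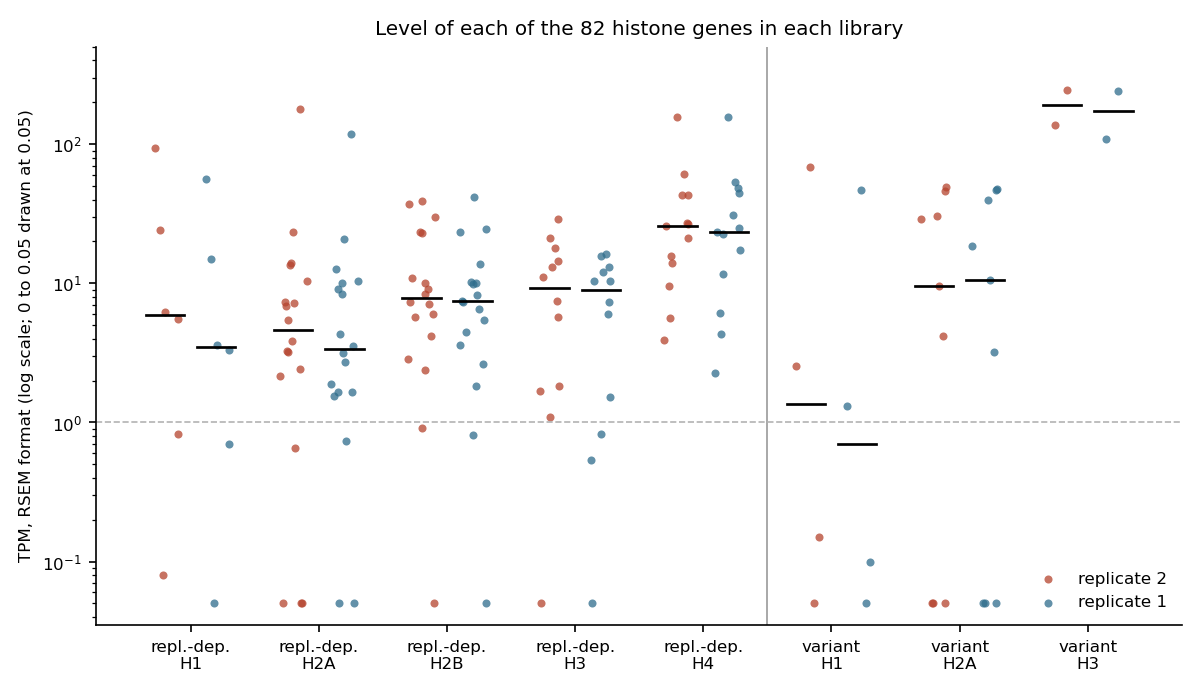
TPM (RSEM format, log scale) of each of the 82 genes in replicate 2 (red, left) and replicate 1 (blue, right), by class and histone family; black lines are medians, the dashed line is 1 TPM, and values from 0 to 0.05 are drawn at 0.05. The replication-dependent H4 genes have the highest median of the 5 replication-dependent families, and the 2 variant H3 genes lie above 100 TPM.

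In RSEM format TPM was concentrated in some genes of each class, more so among variants. The 3 most abundant replication-dependent genes took 34.0 ± 1.83% and the first 8 took 53.5 ± 1.10% of their class's TPM. Among variants the first 3 took 71.3 ± 1.72% and the first 8 took 99.0 ± 0.203%. The ranking of single replication-dependent copies depends on the table. In kallisto format Hist1h4m, at 91.37 TPM in replicate 2 and 102.8 in replicate 1, stood above Hist1h1c, at 71.09 and 41.46 TPM.

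The H4 genes led the replication-dependent class. All 13 were detected and they summed to 454 TPM in replicate 2 and 448 in replicate 1, which was 37.2% and 44.2% of that class's TPM in those libraries. Hist1h4h (ENSMUSG00000060981.7, chromosome 13, 23531050 to 23531519, plus strand, single exon) was the most abundant member of the class by mean, at 157.38 TPM in replicate 2 and 158.25 in replicate 1. These values nearly coincide, with 1753 and 1641 expected counts in replicates 2 and 1. Hist1h4m stood at 60.79 TPM in replicate 2 and 53.20 in replicate 1, and Hist1h4d at 43.07 and 44.61 TPM in those libraries. Hist1h4n stood at 27.02 TPM in replicate 2 and 48.30 in replicate 1, and since it shares its coding sequence with Hist1h4m the pair is better read as 1 unit, taken up below.

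Replication-dependent H2A genes summed to 283 TPM in replicate 2 and 210 in replicate 1, with 13 of 18 detected. Hist2h2aa2 (chromosome 3, 96239749 to 96240276, minus strand) held most of this at 179.61 TPM in replicate 2 and 117.69 in replicate 1. Its coding twin Hist2h2aa1, on the opposite strand of the same cluster, stood at 6.90 and 9.14 TPM in replicates 2 and 1. Hist2h2ac followed at 23.22 TPM in replicate 2 and 20.69 in replicate 1.

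The 18 H2B genes summed to 228 TPM in replicate 2 and 182 in replicate 1, with 16 detected. Their leading member Hist1h2bc stood at 39.14 TPM in replicate 2 and 41.60 in replicate 1. The 12 replication-dependent H3 genes summed to 125 TPM in replicate 2 and 94.4 in replicate 1, led by mean by Hist2h3b at 28.92 and 13.13 TPM in those libraries. In replicate 1 Hist1h3i (16.18 TPM) and Hist1h3e (15.81 TPM) were above it, and in kallisto format Hist1h3b led by mean, at 20.60 TPM in replicate 2 and 21.33 in replicate 1, where Hist2h3b stood at 25.17 and 10.76 TPM. By mean H4, H2A, H2B and H3 took 40.7 ± 4.97%, 22.0 ± 1.70%, 18.3 ± 0.505% and 9.76 ± 0.634% of the replication-dependent TPM, and the linker genes 9.26 ± 2.13%. In replicate 2 the linker genes stood above H3, at 10.8% against 10.2%. The kallisto-format table gave the same order of means, with H4 at 41.6 ± 4.71% and H1 at 7.36 ± 1.75%.

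Hist1h1c led the linker histone genes. Hist1h1c (ENSMUSG00000036181.2, chromosome 13, 23738808 to 23740367, plus strand) reached 94.49 TPM in replicate 2 and 55.91 in replicate 1. Hist1h1e followed at 24.33 and 15.08 TPM in replicates 2 and 1, although it overlaps Hist1h2be on the same strand, so that reads in the overlap cannot be told apart. Hist1h1a and Hist1h1b stood between 3.33 and 6.22 TPM in both libraries. Among variant linker genes H1f0, which encodes the H1 known from non-dividing and differentiated cells, stood at 68.88 TPM in replicate 2 and 46.90 in replicate 1, and H1fx at 2.56 and 1.31 TPM in those libraries.

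The pair of H3 genes encoding the same replacement H3 protein, H3f3a and H3f3b, led the variants. H3f3a (chromosome 1, 180800832 to 180813943, minus strand) was the most abundant member of either class by mean, at 244.20 TPM in replicate 2 and 239.64 in replicate 1. H3f3b (chromosome 11, 116021912 to 116027962, minus strand) stood at 137.84 and 108.17 TPM in replicates 2 and 1. Together they summed to 382 TPM in replicate 2 and 348 in replicate 1, against 125 and 94.4 TPM for the 12 replication-dependent H3 genes in the same libraries. Not all of this was assigned to coding transcripts. H3f3b-204, annotated as a processed transcript without a coding sequence, took 53.5 ± 3.53% of H3f3b's TPM, and the coding H3f3b-201 took 38.7 ± 2.74%. In H3f3a the coding transcripts H3f3a-201 and H3f3a-207 took 47.6 ± 4.26% and 46.1 ± 5.73%.

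Variant H2A genes summed to 168 TPM in replicate 2 and 167 in replicate 1. H2afy, one of 2 macroH2A genes, stood at 48.89 TPM in replicate 2 and 47.81 in replicate 1, and its paralog H2afy2 at 4.20 and 3.23 TPM. H2afz, whose product sits at promoters, stood at 46.06 and 47.05 TPM in replicates 2 and 1, and its close relative H2afv at 28.99 and 18.55 TPM. In H2afz the coding H2afz-201 stood at 44.20 TPM in replicate 2 and 34.49 in replicate 1, and the processed transcript H2afz-205 at 0 and 10.92 TPM. In H2afy the coding H2afy-202 and H2afy-201 took 37.1 ± 1.98% and 16.9 ± 2.80% of TPM, and the processed transcript H2afy-204 took 27.0 ± 2.10%. H2afj stood at 30.39 TPM in replicate 2 and 39.73 in replicate 1, and H2afx at 9.61 and 10.64 TPM. Of these 6 genes H2afj had the lowest ratio of replicate 2 over replicate 1, given below. H1f0, H1fx, H3f3a, H2afj, H2afx and most H2A genes overlap an annotated gene on the opposite strand, and whether the counting used strand is not given in the sources used here. H1fx also overlaps Gm47286 on the same strand.

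How firmly a single copy was measured depended on how much of it is unique. RSEM reports a posterior SD, the uncertainty of a gene's count that comes from assigning shared reads. A count was called uncertain where this SD exceeded 10% of the posterior mean in both libraries. This held for 21 of the 72 members that averaged 10 or more counts, all replication-dependent, against a background of 1.78% of 14673 protein-coding genes. By family there were 9 H2A genes of 16, 6 H2B of 17, 4 H3 of 11, 2 H4 of 13 and 0 of 5 replication-dependent H1 genes, and 0 of 10 variants.

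Uniqueness was measured as the share of a gene's stretches of 101 bases found in no other annotated gene, 101 being the read length implied by RSEM's effective lengths. The median was 66.1% over the 67 replication-dependent genes and 100% over the variants, whose lowest value was 84.7%. Of 13 members under 25% unique, 11 were uncertain, as were 10 of 27 between 25 and 75%, and 0 of 32 at 75% or more. Across these 72 members the rank correlation of uniqueness with the relative SD (mean of both libraries) was -0.85, and it was -0.78 within the 62 replication-dependent genes and -0.84 within the 10 variants. The genes come from the same libraries and copies share sequence, so these are descriptions of the estimates.

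**Figure D3:**
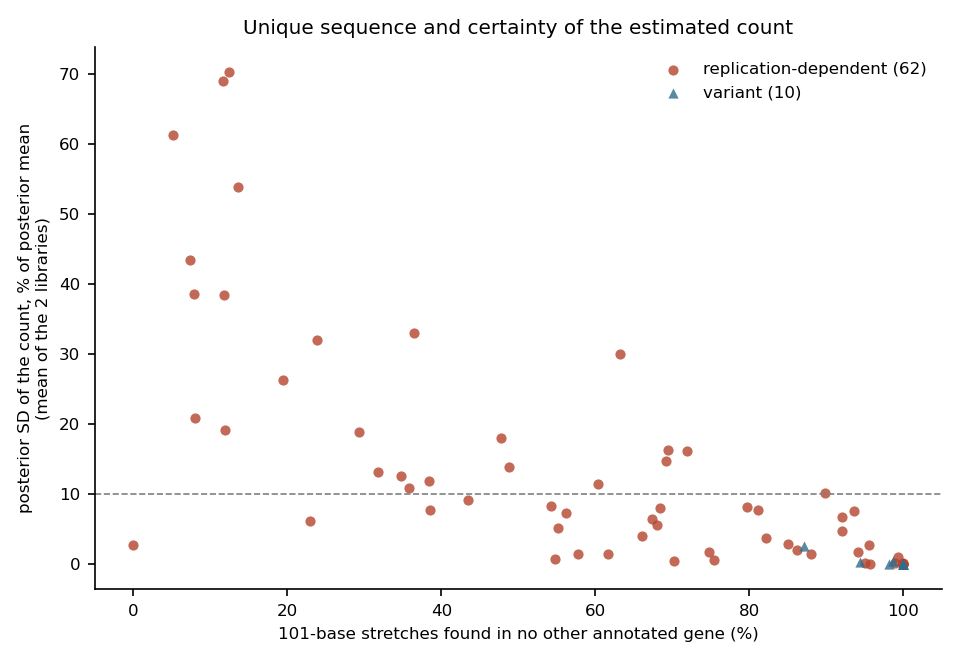
Posterior SD of the estimated count in percent of its mean (mean of both libraries) against the percentage of a gene's 101-base stretches found in no other annotated gene, for the 62 replication-dependent (red circles) and 10 variant (blue triangles) genes that averaged 10 or more counts. The dashed line is 10%, and no gene with 75% or more unique stretches was above 10% in both libraries.

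Among the members that averaged 10 or more counts, the largest relative SDs belonged to Hist1h2ah (86.8% in replicate 2 and 54.0% in replicate 1), Hist1h2ai (52.2 and 86.0%), Hist1h2bq (71.2 and 51.4%) and Hist1h2br (55.7 and 52.0%), with replicate 2 first in each pair. Hist1h2ah had 12.5% and Hist1h2bq 5.21% unique stretches. Hist2h2aa2 was an exception in the other direction: 0% of its stretches were unique, yet its relative SD was 2.45% in replicate 2 and 3.11% in replicate 1. Its twin Hist2h2aa1 had 11.7% unique stretches, in an annotated transcript of 586 bases against 528 for Hist2h2aa2, and a relative SD of 47.9% in replicate 2 and 29.1% in replicate 1.

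The kallisto-format table divided such twins differently. The RSEM-format counts gave Hist2h2aa2 95.8% of the pair's counts in replicate 2 and 91.9% in replicate 1, whereas the kallisto-format counts gave it 53.9% and 56.8% in those libraries. Hist1h4m received 67.3% of the counts of the Hist1h4m and Hist1h4n pair in replicate 2 and 50.2% in replicate 1 in RSEM format, against 97.6% and 92.7% in kallisto format. Summed, both tables gave nearly the same TPM for these 2 pairs. Hist2h2aa1 plus Hist2h2aa2 came to 186.5 TPM in replicate 2 and 126.8 in replicate 1 in RSEM format, against 194.6 and 131.0 TPM in kallisto format. The H4 pair came to 87.8 and 101.5 TPM in replicates 2 and 1 in RSEM format, against 93.3 and 109.8 TPM in kallisto format. In counts the H4 pair was further apart, with 821 and 897 in replicates 2 and 1 in RSEM format, against 595 and 669 in kallisto format.

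A member was called apart between the tables where its TPM differed at least 2-fold in the same direction in both libraries, among genes with at least 1 TPM by either table in each. This held for 11 of 67 members, all replication-dependent, against 1.42% of 12575 protein-coding genes. In 6 the RSEM-format value was higher (background 0.461%) and in 5 it was lower (background 0.954%). The widest gaps were in Hist1h2ai, listed at 3.22 TPM in replicate 2 and 0 in replicate 1 in RSEM format, against 39.26 and 31.12 TPM in kallisto format. Hist1h2ao stood at 13.46 and 10.08 TPM in replicates 2 and 1 in RSEM format, against 0 and 2.75 TPM in kallisto format. Hist1h2ah stood at 0 and 3.56 TPM in replicates 2 and 1 in RSEM format, against 10.97 and 15.88 TPM in kallisto format. These 3 are H2A copies of the same read-sharing group, whose summed counts in RSEM format were 1.08 times those in kallisto format in replicate 2 and 1.04 times in replicate 1. The summed TPM of that group was 0.693 times the kallisto-format value in replicate 2 and 0.672 times in replicate 1. Hist1h4n, Hist2h2aa1 and Hist1h2bk followed, the last with 8.38 and 10.00 TPM in replicates 2 and 1 in RSEM format, against 2.33 and 1.76 TPM in kallisto format.

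Members linked by at least 50% of one gene's 101-base stretches form 7 groups that hold 29 genes. Only members were grouped, so the sums leave out reads assigned to other genes that share sequence with them. The non-member Gm20634 shares 88.3% of the stretches of Hist2h2aa1, 77.1% of those of Hist2h3b and 61.5% of those of Hist2h3c2. Outside the groups, Gm42743 shares 45.2% of those of Hist2h2bb and Trim17 29.8% of those of Hist3h2a. Summed over each group, 0 of the 7 were 2-fold apart in TPM between the tables, against 1.42% of coding genes, which were not summed. With 7 groups, 0 cannot be set apart from that share. The largest group, of 10 H2A genes of Hist1, came to 55.2 TPM in replicate 2 and 46.9 in replicate 1 in RSEM format, against 79.5 and 69.8 TPM in kallisto format. The group nearest to 2-fold was that of Hist1h2bk, Hist1h2bq and Hist1h2br, at 55.0 and 30.3 TPM in replicates 2 and 1 in RSEM format, against 31.2 and 17.6 TPM in kallisto format. In counts this group was more than 2-fold apart, with 507 and 282 in replicates 2 and 1 in RSEM format, against 204 and 126 in kallisto format. Of 48 groups and single genes compared after this summing, 4 single genes were 2-fold apart (same background of 1.42%). Hist1h4f and Hist1h4i were higher in RSEM format, and Hist1h2bf and Hist1h2bp lower.

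**Figure D4:**
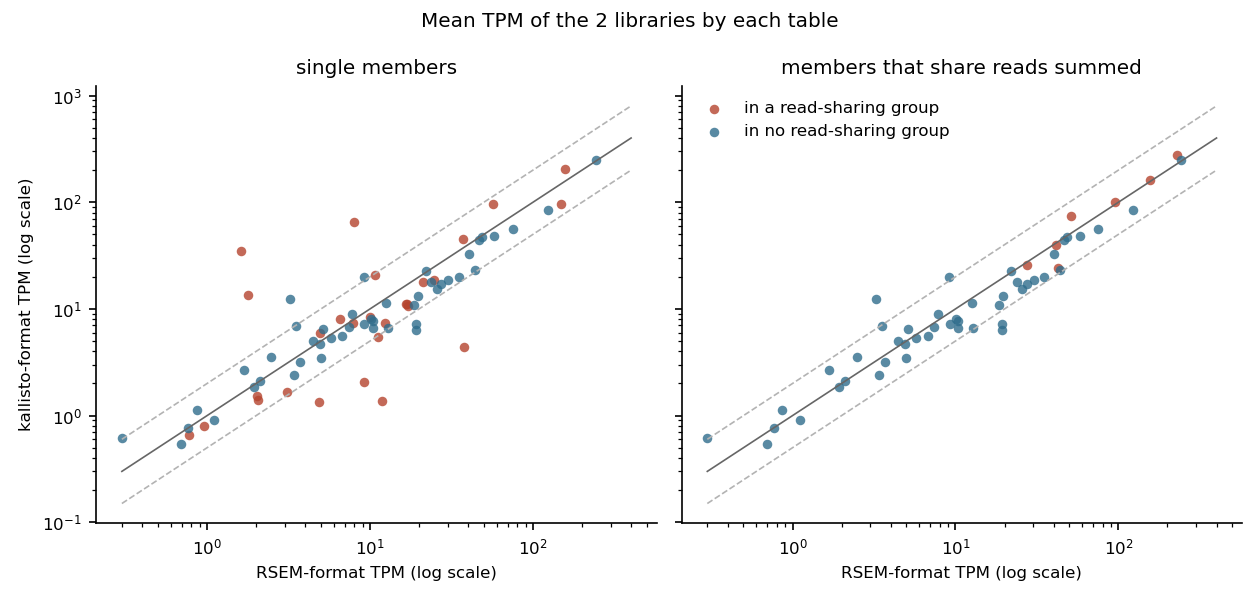
Mean TPM of both libraries in RSEM format (x axis) against kallisto format (y axis), both on log scales, for single members (left) and with members that share reads summed (right); red marks read-sharing groups or their members, blue all others, units under 0.5 TPM in both tables are left out, and values under 0.3 are drawn at 0.3. Solid lines are equality and dashed lines 2-fold; the red points that lie outside the dashed lines on the left lie inside them on the right.

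Both counts and effective lengths of the replication-dependent class were higher in RSEM format, which act in opposite directions on TPM. RSEM-format counts of the replication-dependent class were 1.14 times the kallisto-format counts in replicate 2 and 1.16 times in replicate 1, with H4 at 1.33 and 1.35. For variants the ratio was 0.932 in replicate 2 and 0.933 in replicate 1, and for all protein-coding genes 0.930 and 0.924. The tables also assume different effective lengths, the number of positions where a read can start: for single-transcript genes RSEM's was the annotated length less 100 bases, and its median ratio to kallisto's was 1.53 in 62 replication-dependent genes, 1.15 in 8 variants and 1.11 in 4477 coding genes. For Hist1h4h these lengths were 370 and 222 bases. The summed TPM of the replication-dependent class was 1.04 times the kallisto-format sum in replicate 2 and 1.05 times in replicate 1. For variants this ratio was 1.127 in replicate 2 and 1.131 in replicate 1, and for all protein-coding genes 1.055 and 1.060. TPM is scaled to a common total in each format, so these ratios do not follow from counts and effective lengths alone. The summed ratio of replication-dependent over variant genes was 2.13 in replicate 2 and 1.94 in replicate 1 by kallisto. Hist2h4 and Hist1h4d, each 100% unique, also received more counts in RSEM format, by 1.60 and 1.56 times in replicate 2 and 1.54 and 1.72 times in replicate 1; the cause was not tested.

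Between the animals most histone genes were less than 2-fold apart. Ratios of scaled counts, replicate 2 over replicate 1, were given exact 95% intervals, which cover counting error only and not the assignment of shared reads. Over the 72 members that averaged 10 or more counts the median log2 ratio (of CPM + 1) was 0.14, and it was 0.14 for the replication-dependent genes, 0.17 for the variants and 0.03 for all protein-coding genes. At least 2-fold apart, with an interval excluding equality, were 7 of 72 members, against a background of 5.80% of coding genes. These 7 were all replication-dependent: 5 were higher in replicate 2 (background 4.46%) and 2 lower (background 1.34%). In bulk tissue a difference in RNA per cell and a difference in the number of cells of a type cannot be told apart.

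Those 7 genes are mostly copies that share reads. Hist1h2ai was listed at 28.4 expected counts in replicate 2 and 0 in replicate 1, but its posterior means were 29.2 ± 15.2 and 16.8 ± 14.4 counts in those libraries (± posterior SD) and its kallisto-format counts 237 and 178. Hist1h2ah was listed at 0 counts in replicate 2 against 30.5 in replicate 1, but its posterior means were 13.1 ± 11.3 and 26.2 ± 14.1 counts in those libraries. For both genes the posterior ranges overlap widely. Hist1h2bq was 2.16-fold higher (interval 1.65 to 2.85), Hist1h2af 2.43-fold (1.49 to 4.10, with an interval including equality by kallisto-format counts), Hist2h3b 2.03-fold (1.67 to 2.49) and Hist1h3g 2.70-fold (1.11 to 7.49, from 21.7 counts in replicate 2 and 6.55 in replicate 1). Hist1h2bl was lower, at 0.478 (interval 0.342 to 0.661).

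Summed, 0 of the 7 read-sharing groups were 2-fold apart, against a background of 5.80% of coding genes, which were not summed. With 7 groups, 0 cannot be set apart from that share. The widest summed difference was that of Hist1h2bk, Hist1h2bq and Hist1h2br, at 1.55-fold (interval 1.33 to 1.79). The 10 H2A genes summed differed 1.08-fold (interval 0.959 to 1.22). Hist2h3b with its relatives Hist2h3c1 and Hist2h3c2 differed 1.28-fold (interval 1.11 to 1.48), and Hist1h4m with Hist1h4n was lower in replicate 2, at 0.787 (interval 0.715 to 0.866). After summing, 2 of 52 groups and single genes were called (same background of 5.80%), Hist1h3g (higher in replicate 2) and Hist1h2bl (lower).

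The linker histone genes all lay on one side. All 7 tested H1 genes had a ratio above 1, from 1.09 to 1.80. Among all 72 tested members 52 had a log2 ratio above 0, as did 8016 of 14673 coding genes. In 6 of the 7 H1 genes the interval lay wholly above equality, against a background of 29.4% of coding genes, which was not matched for counts. Hist1h1c had 4152 expected counts in replicate 2 and 2287 in replicate 1, a ratio of 1.56 (interval 1.48 to 1.64). Hist1h1e was at 1.49 (1.36 to 1.63), Hist1h1a at 1.59 (1.16 to 2.18) and Hist1h1b at 1.55 (1.12 to 2.16). The variant linker gene H1f0, with 4053 counts in replicate 2 against 2569 in replicate 1, was at 1.36 (1.29 to 1.43), and H1fx a ratio of 1.80 (1.23 to 2.68). Hist1h1d was the gene whose interval included equality, at 1.09 (0.873 to 1.37). None of the 5 replication-dependent H1 genes tested had an uncertain count, and 75.5 to 100% of their stretches were unique. The median log2 ratio was 0.49 over the 7 H1 genes and 0.12 over the 65 core histone genes.

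Core histone genes lay on both sides, with more of them above equality, as among all coding genes. Of 65 tested, 45 had a log2 ratio above 0, against 8016 of 14673 coding genes. An interval lay wholly above equality in 21 and wholly below it in 13 (backgrounds 29.4 and 22.9%). The 13 H4 genes divided evenly, with 4 above and 4 below; Hist1h4h stood at 0.918 (interval 0.858 to 0.983) and Hist1h4i at 0.646, while Hist1h4k stood at 1.28 (1.06 to 1.55). The interval of Hist1h4h included equality with library totals and by kallisto-format counts, and those of Hist1h4d and H2afx did so by kallisto-format counts. Hist2h2aa2 was at 1.41 (1.32 to 1.51), and its pair with Hist2h2aa1 at 1.35 (1.27 to 1.44). Among variants H3f3b was at 1.22 (1.17 to 1.27), H2afv at 1.33 (1.19 to 1.49) and H3f3a at 1.05 (1.01 to 1.09), whereas H2afj was at 0.769 (0.709 to 0.835) and H2afx at 0.833 (0.720 to 0.963).

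**Figure D5:**
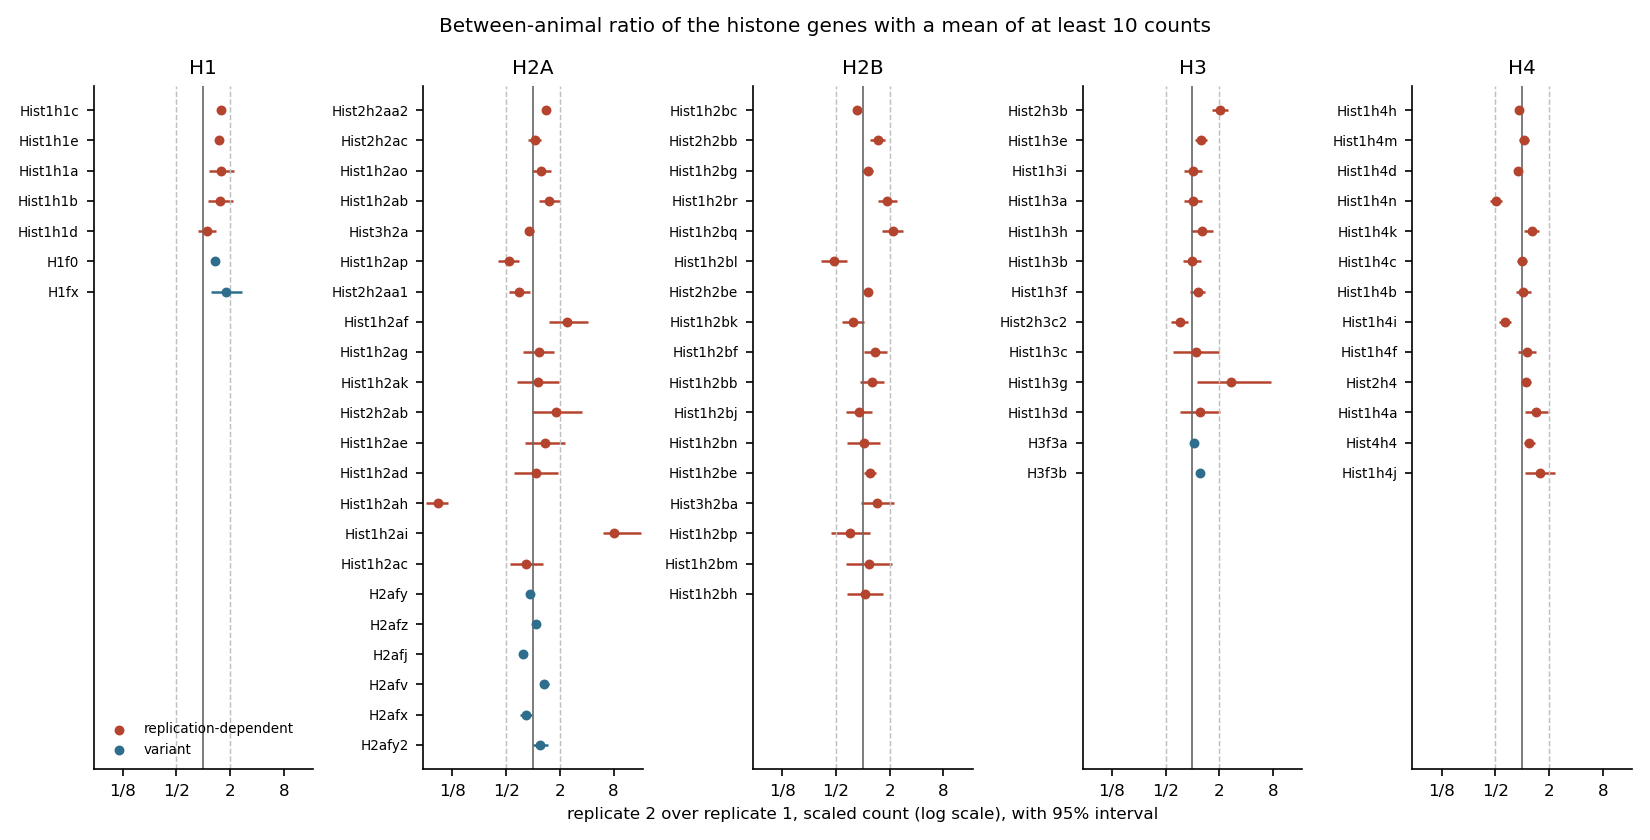
Ratio of scaled counts, replicate 2 over replicate 1, with its exact 95% interval (log scale), for the 72 genes that averaged 10 or more counts, by histone family; red marks replication-dependent and blue variant genes, dashed lines 2-fold, a count of 0 (Hist1h2ah in replicate 2, Hist1h2ai in replicate 1) is drawn as 3, and lines that reach the edge have no end on that side. All 7 H1 genes lie above 1, whereas each core family has genes on both sides.

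Genes of DNA replication and division lay on both sides of equality. Of the 20 S-phase and mitosis genes listed, 10 were detected and their sum was 72.7 TPM in replicate 2 and 69.9 in replicate 1. Their median log2 ratio was 0.03. None was at least 2-fold higher in replicate 2 and 1 was lower, Ccne1, the cyclin of S-phase entry, at 1.41 TPM in replicate 2 and 4.13 in replicate 1. An interval lay above equality in 2 genes (Top2a at 1.48 and Mki67 at 1.34) and below it in 2 (Ccne1 at 0.321 and Tyms at 0.780), against backgrounds of 29.4 and 22.9% of coding genes. The most abundant were Pcna, the replication clamp, at 22.87 TPM in replicate 2 and 21.76 in replicate 1, Mcm2, a subunit of the replicative helicase, at 12.66 and 10.35, and Tyms, which makes thymidylate, at 6.66 and 7.38 TPM.

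The factors that act on histone RNA and protein lay near equality by their medians. Of 17 genes of histone transcription and 3′ processing 16 were detected, 0 were 2-fold apart, 3 had an interval above and 6 below equality (backgrounds 29.4 and 22.9%, as for both lists that follow), and their median log2 ratio was -0.01. Slbp, which binds the stem-loop, stood at 14.30 TPM in replicate 2 and 11.86 in replicate 1, and Npat, which activates the clustered genes, at 5.38 and 5.21 TPM in those libraries. The most abundant were Srrt (81.26 and 80.40 TPM), Sympk (40.88 and 42.86) and Tut7 (30.00 and 28.01), with replicate 2 first. Of 12 replication-coupled histone chaperones 9 were detected, led by Rbbp7 (96.26 and 81.42 TPM), Rbbp4 (61.91 and 53.09) and the importin Ipo4 (51.93 and 48.93). The median log2 ratio was -0.03, with 3 intervals above and 1 below equality. All 16 chaperones and remodellers of variant histones were detected, led by Ssrp1 (56.63 and 49.05 TPM), Nap1l4 (49.84 and 50.96) and Srcap (47.97 and 47.07), with a median log2 ratio of -0.07, 2 intervals above and 5 below equality.

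Markers of several cell types also differed between the animals. In replicate 2 all 5 adipocyte markers were at least 2-fold higher (median log2 ratio 3.02), as were the 3 brown adipocyte markers (5.04). The 4 macrophage markers each had an interval above equality (median log2 ratio 0.49, summed level 265 TPM in replicate 2 and 165 in replicate 1), and so did the 3 erythroid markers (0.63, 1650 and 989 TPM). Of the 3 lymphocyte markers Ighm was higher, at 57.99 TPM in replicate 2 and 19.96 in replicate 1. Cd3e and Cd79a stayed under 1 TPM, with ratios of 1.08 (interval 0.606 to 1.96) and 1.07 (0.470 to 2.51). The 5 cortex markers and 4 chromaffin markers were all lower in replicate 2, with median log2 ratios of -0.36 and -0.75 and sums of 17901 against 21175 TPM and of 2008 against 2857 TPM. The part of these cells in the histone ratios was not tested.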

How the data were processed

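Total adrenal gland RNA of 2 animals was sequenced, and each library was quantified alone. The deposited gene and transcript tables hold expected counts, TPM, posterior SDs and the percent of a gene's TPM per transcript under RSEM's column names, per the file headers; a further deposited table holds estimated counts and TPM under kallisto's. The accompanying text names mm10 with GENCODE M21, and that both start from the reads; the sources used here give no tool versions. Further entries beside the 55536 annotated genes (26345 per library, 0.238% of counts in replicate 2 and 0.243% in replicate 1) were left out.

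TPM were used as deposited. Kallisto-format transcripts were summed per gene. Counts, rounded for this, were scaled with TMM factors of edgeR 4.0.16 in R 4.3.3. DESeq2 1.42.0 gave alternative size factors. Ratios have exact conditional binomial 95% intervals. They and the floors cover only counting error, because the tables show no molecular identifiers and 1 molecule can give several reads. The labels give separate animals, so ± between animals is an SD over 2 animals. The procedure was tested on simulated counts. Sequence came from GENCODE M21 transcripts.

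Named genes were the 8 most abundant of each class, the 2 markers Hist1h4h and Hist1h1c, members called apart, the 6 widest gaps between tables, the 4 largest relative SDs and the 3 most abundant of each list, with further H1 genes chosen after their values were seen. Members, lists and rules were chosen with earlier results of these data known.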

Additional observations from a re-analysis of the deposited data

How the results depend on the processing

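With 2 animals in 1 group there is no comparison of conditions, and depth limits copies with few counts. The ratio of summed TPM, replication-dependent over variant, stayed above 1 under every alternative run and moved to 2.04 by kallisto and 1.69 with annotated in place of effective lengths; leaving out 1 library gave 1.80 to 1.96. The ratio of medians stayed below 1 only as a mean over both libraries. It moved to 0.863 by kallisto (0.987 in replicate 2 and 0.740 in replicate 1) and to 0.847 without the testis-type Hist genes. With members of at least 1 TPM in both libraries it was 0.260. Without members of uncertain count, a choice made after seeing the data, it was 0.917 ± 0.195, a spread over 2 animals that includes 1. Leaving out 1 library gave 0.705 to 0.778. The 7 members apart between replicates became 2 at a mean of at least 100 counts, where fewer genes were compared (background 3.10%), and 17 at 1.5-fold (background 12.8%). The 6 H1 genes above equality became 3 of 4 at a mean of at least 100 counts, a setting at which the share of coding genes was not computed. The 11 members apart between the tables became 25 at 1.5-fold (background 3.55%). With members that share reads summed they became 4, an alternative added after seeing the data and without a background of its own. The 21 uncertain members became 35 at 5%, 11 at 20% and 11 at a mean of at least 100 counts, against backgrounds of 3.11, 0.927 and 0.565%. Of the 28 named genes' log2 ratios, Hist1h4m changed sign, to -0.27 by kallisto-format counts. Equality entered the interval of Hist1h4h (-0.08 with library totals, -0.05 by kallisto), Hist1h4d (-0.00057), H2afx (-0.19), Hist1h2af (0.36) and Hist1h2ai (0.19) by kallisto, of H2afy with library totals (-0.06) and of H2afz with DESeq2 size factors (0.11) and by kallisto (0.05); of 112 alternatives 102 kept direction and side of equality. No paired analysis was possible because the labels give 1 group.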
